A study of Mus musculus with 17 samples.

Results

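The genes described here build the machinery that copies DNA in S phase and supply its building blocks. The set was a written list of 40 genes, to be used where a gene had a log2 value of at least 5 in 1 of 6 groups, in 5 roles: 12 that license origins or form the replicative helicase, 8 of the sliding clamp, its loader and the single-strand binding protein, 11 polymerase, primase and Okazaki fragment genes, 5 for nucleotide supply, and 4 for S phase entry and maintenance methylation. All 40 were found among the 38087 genes of the deposited table, each on 1 row, and all 40 met that minimum.

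Poly-A RNA was sequenced from cells sorted out of injured tibialis anterior muscle. The mice were DBA/2J males, 3 months old, and the injury was made with cardiotoxin, a venom component that destroys muscle fibres. The 17 samples form 6 groups: 2 samples of neutrophils of day 1, and 3 samples for each of 5 macrophage groups, Ly6C high of days 1, 2 and 4 and Ly6C low of days 2 and 4. All groups come from injured muscle of 1 inbred strain with no gene altered per the labels, there is no uninjured group, and the sources used here do not say whether animals were pooled. By its title, the series concerns the nuclear receptor PPARγ and macrophage polarization.

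Before a cell divides, the MCM2-7 helicase is loaded at origins by Cdc6 and Cdt1 and is later switched on with Cdc45 and the GINS complex. DNA polymerases alpha, delta and epsilon then copy the strands, delta and epsilon held by the PCNA clamp. All are fed by ribonucleotide reductase, thymidylate synthase and thymidine kinase. Many of these genes are known targets of E2F transcription factors, and mature neutrophils and many tissue macrophages are regarded as outside the cell cycle, although macrophages can divide in tissue.

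The table holds the authors' mean of log2 normalised reads for each group, 1 value per group, so values are printed without an error, no replicate check could be made and no test was possible. A difference is the log2 value of the first group minus that of the second, and a difference of at least 1 (2-fold) was counted. A gene was compared where 1 or both of the groups had a log2 value of at least 5. From the steps between low values, 1 read was worth 0.412 to 1.03 normalised units in a library, so that a value of 5 stood for 77.6 to 31.2 reads, with a counting error of 11.4 to 17.9% in a single library. Values are not divided by gene length, so levels are set side by side within a gene and not between genes. Several comparisons share a column, so their differences are not independent of each other. RNA of sorted cells was pooled within a sample, so fewer cells in S phase and less of a transcript per cell cannot be told apart.

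Marker genes followed the labels in part. The summed level of 13 neutrophil markers was 16.44 (log2) in the neutrophil column and 11.08 to 12.22 in the macrophage columns, while Ly6g, the defining surface marker, had a value of 3.48 in the neutrophil column and was listed at 0 for all 5 macrophage groups. The summed level of 9 macrophage markers was 16.03 in the neutrophil column, against 16.46 to 17.23 in the macrophage columns. The 8 fibroblast markers summed to 15.84 in Ly6C high and 13.85 in Ly6C low cells of day 4, and to 5.80 to 10.36 in the other groups.

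The control regions of 2 genes that differed strongly between the macrophage subsets on day 2 are shown first, because they carry words known to bind E2F. These are the bases from 190 before the RefSeq start site up to it, on the gene's strand, 5′ to 3′, GRCm38.p6, with the E2F words in capitals. They were taken as the genes with a match before the start site among the 10 with the largest difference. Lig1 and Pole2, which are also among these 10, have their match after the start site and are not printed. Of the rest of the 10, Mcm10, Rrm2, Ccne1 and Cdc45 held no match, and Pole and Gins1 had no start site sequence at hand. Mcm6 encodes a helicase subunit (chr1:128359706-128359895, minus strand) and has 3 matches, of which 2 overlap. Pola1 encodes the catalytic subunit of polymerase alpha (chrX:93632156-93632345, minus strand).
Mcm6: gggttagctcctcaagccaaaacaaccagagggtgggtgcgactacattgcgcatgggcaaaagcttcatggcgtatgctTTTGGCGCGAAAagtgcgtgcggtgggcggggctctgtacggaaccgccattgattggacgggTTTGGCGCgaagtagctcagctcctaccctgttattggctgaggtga
Pola1: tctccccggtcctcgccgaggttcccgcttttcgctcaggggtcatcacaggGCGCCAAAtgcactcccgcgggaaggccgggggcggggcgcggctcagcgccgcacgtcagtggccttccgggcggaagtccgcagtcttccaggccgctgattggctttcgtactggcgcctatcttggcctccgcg

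Another 2 promoters, picked after their matches and values were seen, show other arrangements of the words. Mcm5 (chr8:75109319-75109508, plus strand) has 2 overlapping matches, 1 on each strand. Uhrf1, which guides maintenance DNA methylation (chr17:56304123-56304312, plus strand), has 1 match far from the start site, in a stretch that lies inside a longer GENCODE model of the gene but outside its exons.
Mcm5: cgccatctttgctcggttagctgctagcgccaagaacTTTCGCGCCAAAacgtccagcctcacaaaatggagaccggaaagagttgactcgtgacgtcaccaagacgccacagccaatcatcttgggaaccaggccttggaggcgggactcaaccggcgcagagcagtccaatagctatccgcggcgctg
Uhrf1: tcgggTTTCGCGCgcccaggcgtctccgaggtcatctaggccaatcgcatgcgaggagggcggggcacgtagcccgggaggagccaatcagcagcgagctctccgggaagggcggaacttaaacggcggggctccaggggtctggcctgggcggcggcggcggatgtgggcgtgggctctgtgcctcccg

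The words searched were TTTGGCGC, TTTCGCGC, TTTCCCGC and TTTGCCGC, on both strands, in windows from 250 bases before to 50 after the start site. RefSeq windows were at hand for 33 of the 40 genes, and 13 of these (39.4%) held a match. The share was 4.76% of 8441 genes that reached a log2 value of 5 in a group, and 2.6% of all 27025 genes with a window. By role the matches were in 6 of 9 licensing and helicase genes, 5 of 9 polymerase genes, 1 of 7 clamp and loader genes, 1 of 3 S phase entry genes and 0 of 5 nucleotide supply genes. In a written list of other fork and origin genes, 35 had a window and 28.6% of these held a match. Median GC content was 61.3% over the 39 windows of the members and 60.7% over the 10797 windows of expressed genes.

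In 20 mitosis and G2/M genes, which act after replication, the E2F share was 1 of 16 (6.25%), while the CHR words TTTGAA and TTCGAA were in 81.2% and CCAAT in 93.8%. The replication genes held the CHR words in 18.2% and CCAAT in 54.5%, against 16.3% and 42.5% of expressed genes. A word match is a description of letters and not a bound site. The 13 genes with a match had a median day 2 difference between Ly6C low and Ly6C high cells of 1.52, with a range of -0.08 to 2.03, and the 20 without had 1.09, with a range of 0.34 to 2.04, so the ranges overlapped almost wholly. Cdt1, the gene with the lowest difference, held a match and Mcm10, with the highest, did not.

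**Figure D1:**
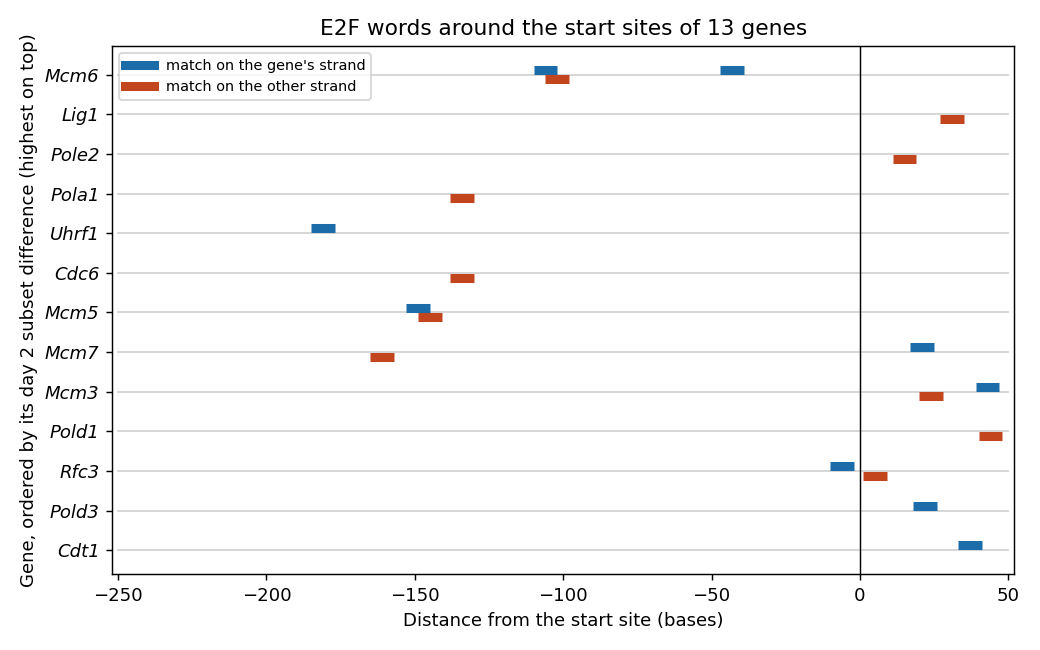
Positions of the E2F words (boxes) from 250 bases before to 50 after the RefSeq start site (horizontal axis, bases), 1 row for each of the 13 genes with a match, ordered by the day 2 difference between the macrophage subsets. Mcm6, on top, has 3 matches, all before the start site, and Cdt1, at the bottom, has 1 after it.

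Across the 6 groups most of the replication genes shared a shape. Of the 40 genes, 30 had their highest value in Ly6C low cells of day 2, 5 in neutrophils (Mcm10, Pcna, Rfc5, Pola2 and Ccne2), 4 in Ly6C low cells of day 4 (Rfc1, Rfc2, Rrm2 and Tk1) and 1 in Ly6C high cells of day 4 (Cdt1). The lowest value lay in Ly6C high cells of day 1 for 34 of them. Under median-ratio rescaling, quantile normalization or centring of the columns, 25 genes peaked in Ly6C low cells of day 2 and 11 in neutrophils, in each case. Among the 5 macrophage columns alone, 33 of 40 were highest in Ly6C low cells of day 2, against 16.7% of 13041 expressed genes, and 35 were lowest in Ly6C high cells of day 1, against 27.2%.

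**Figure D2:**
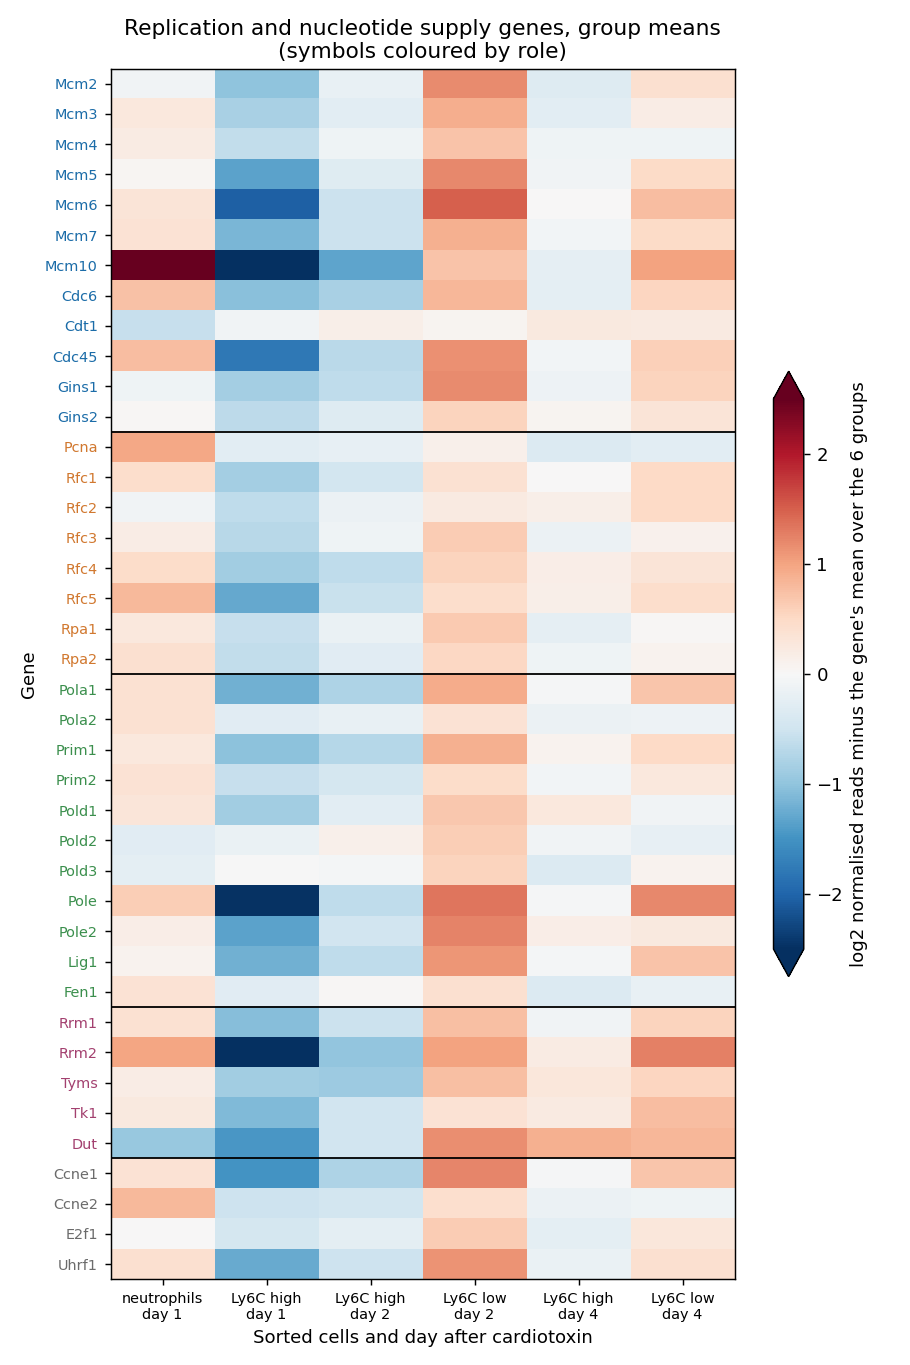
Log2 normalised reads of each of the 40 genes (rows, by role) in the 6 groups (columns), shown as the value minus the gene's own mean over the groups (colour, log2). The column of Ly6C low cells of day 2 holds the highest value for 30 genes and that of Ly6C high cells of day 1 the lowest for 34.

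The comparison of Ly6C low with Ly6C high macrophages on day 2 asked how the subsets differ when both are present early in repair. Replication genes were higher in Ly6C low cells: 39 of 40 had a difference above 0, 21 by at least 1 and 0 lower by as much, with a median of 1.18 over all 40 and a range of -0.08 to 2.04. Of the 11482 genes compared, 3.71% were at least 2-fold higher and 4.03% at least 2-fold lower, and their median was -0.03. Of the 21, 9 reached a value of 5 in the Ly6C low column alone (Mcm10, Cdc6, Cdc45, Gins1, Rfc4, Pole, Pole2, Tyms and Ccne1), and among the 31 genes at 5 or more in both columns 12 were at least 2-fold higher. Marker genes differed in the same comparison. Of 7 classical monocyte markers 6 were at least 2-fold lower in Ly6C low cells, with summed levels of 12.14 against 14.20. That list holds Ly6c1 (-4.03) and Ly6c2 (-3.71), genes of the antigen that names the subsets, so it follows the sort in part. Of 9 macrophage markers 3 were at least 2-fold higher and 1 lower. For other cells, 5 of 5 fibroblast, 4 of 6 endothelial and 4 of 6 dendritic cell markers compared were at least 2-fold lower. Their sums were 7.85 against 10.36, 8.39 against 9.71 and 7.35 against 9.17. Of 8 neutrophil markers compared 2 were at least 2-fold higher and 1 lower, and the sum over their list was 11.65 against 11.29. The part of these other cells in the result was not tested.

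All 6 helicase subunits were higher in Ly6C low cells on day 2, with differences of 0.83 to 2.03 and a median of 1.40. Mcm6 (ENSMUSG00000026355, chromosome 1, 128331590 to 128359664, GRCm38) had a value of 8.51 in neutrophils. In Ly6C high cells it had 6.16 on day 1, 7.66 on day 2 and 8.20 on day 4, and in Ly6C low cells 9.69 on day 2 and 8.96 on day 4. Both Ly6C low columns lay above all others, and day 1 Ly6C high cells lay lowest. Its subset difference was 2.03 on day 2 and 0.77 on day 4.

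Values of the next genes follow in the same order, neutrophils, then Ly6C high days 1, 2 and 4, then Ly6C low days 2 and 4. Mcm5 stood at 8.34, then 6.94, 7.97 and 8.19, then 9.49 and 8.76. Mcm2 was at 8.07, then 7.14, 7.96 and 7.83, then 9.34 and 8.56. Mcm3 had 8.82, then 7.75, 8.29 and 8.30, then 9.47 and 8.74. In these 3 subunits Ly6C high cells of days 2 and 4 differed by 0.22 or less, and Ly6C low cells of day 2 were highest. Mcm7 was at 7.42, then 5.92, 6.53 and 7.0, then 7.96 and 7.55; it shares 7.25% of its exon bases with Ap4m1 on the other strand, and the strand used in counting is not given. Mcm4 was at 8.69, then 7.87, 8.38 and 8.39, then 9.21 and 8.39. It was the subunit with the smallest subset difference, 0.83 on day 2 and 0.01 on day 4.

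The factors that load and start the helicase were not alike. Cdt1 (chromosome 8, 122568015 to 122573554), which brings MCM to origins and whose protein is known to be destroyed in S phase, was at 8.95, then 9.43, 9.67 and 9.76, then 9.59 and 9.75. Its macrophage columns all lay within 9.43 to 9.76 and its neutrophil column lay lowest. In the columns as deposited 2 of the 40 genes, Cdt1 and Pold2, had their lowest value there, and 1 of 40 under each rescaling. Cdc6, its partner in loading, was at 5.74, then 3.96, 4.21 and 4.76, then 5.85 and 5.56. Ly6C high cells stayed under 5 on all days and the other groups were above it.

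Cdc45, part of the active helicase, was at 6.26, then 3.71, 4.82 and 5.42, then 6.63 and 6.09. Mcm10 (chromosome 2, 4989714 to 5012791), which helps to activate the helicase, was at 8.28, then 2.68, 4.24 and 5.34, then 6.28 and 6.56. Its neutrophil column was above all macrophage columns, and Ly6C high cells of day 1 differed from it by -5.60, the widest gap of any of the 40 genes. Of the 4 GINS genes, Gins1 differed by 1.82 between subsets on day 2 and Gins2 by 0.87, and Gins3 and Gins4, which are not among the 40 and were named after their values were seen, by 0.64 and 0.53. The last pair lay below the smallest difference of the helicase subunits, and 67.3% of the exon bases of Gins2 overlap Gse1 on the other strand. Gins3 was at 4.01 in Ly6C high and 4.64 in Ly6C low cells on day 2, so it did not pass the filter of 5.

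**Figure D3:**
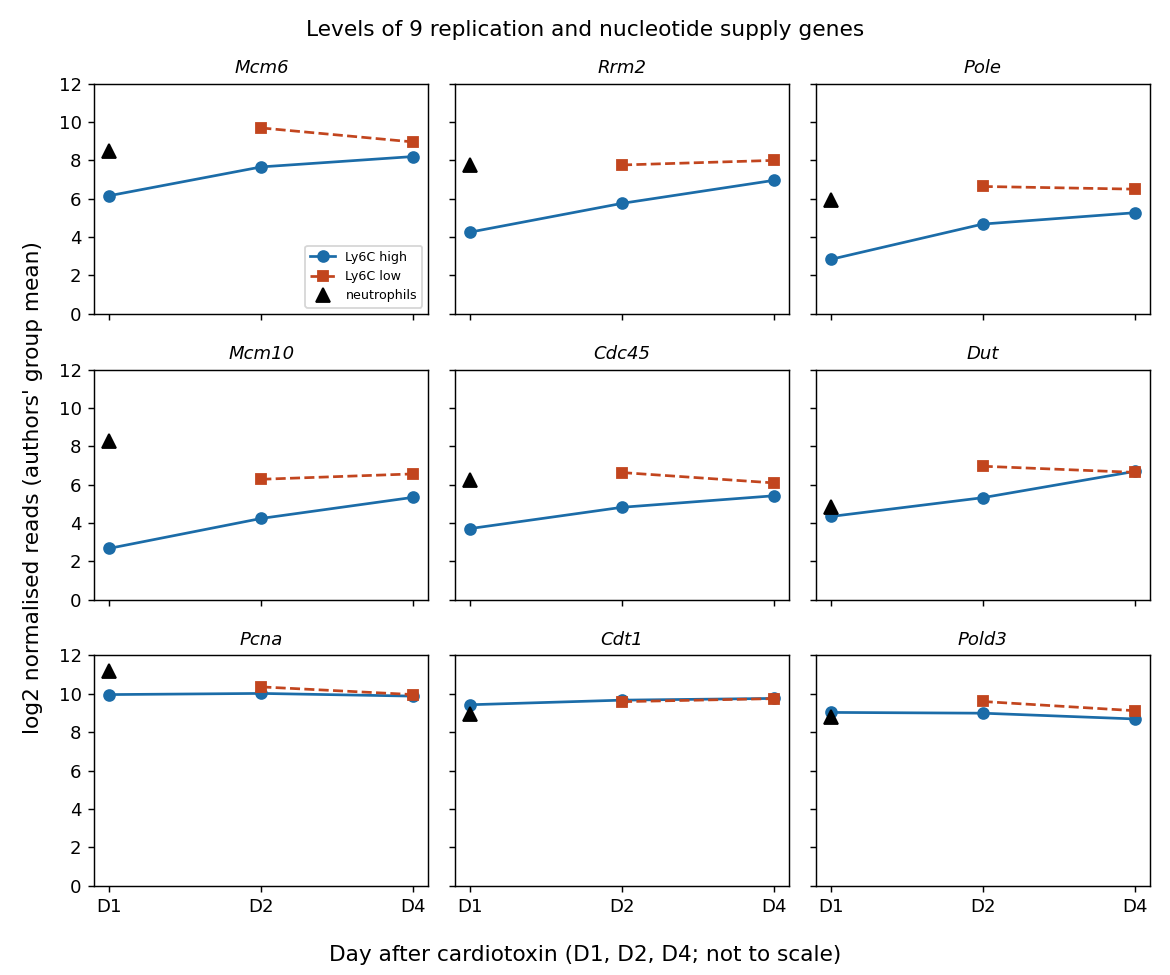
Authors' group means of log2 normalised reads (vertical axis, no error bars because each group has 1 value) of 9 genes against day after cardiotoxin (horizontal axis), for Ly6C high cells, Ly6C low cells and neutrophils. Mcm6 on day 2 is at 9.69 in Ly6C low and 7.66 in Ly6C high cells, Dut is at 6.64 and 6.69 on day 4, and Cdt1 is nearly flat in macrophages.

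The clamp and its loader differed less between subsets on day 2, with a median of 0.82 over 8 genes and 1 of 8 at least 2-fold higher. Pcna (ENSMUSG00000027342, chromosome 2, 132249162 to 132253314), the sliding clamp, was at 11.20, then 9.96, 10.02 and 9.88, then 10.36 and 9.96. Its macrophage columns spanned less than the step to neutrophils. The subset difference of Pcna was 0.34 on day 2, smaller than that of every helicase subunit, and 0.08 on day 4.

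Rfc4, a small subunit of the clamp loader, was at 5.90, then 4.56, 4.80 and 5.60, then 5.98 and 5.75, and was the 1 gene of this role past 2-fold on day 2, at 1.18. Rfc2 had 8.28, then 7.73, 8.21 and 8.50, then 8.58 and 8.86. It had a subset difference of 0.37 on day 2 and 0.36 on day 4, nearly the same on both days. Rfc2 and Rfc4 share 15.1% and 12.7% of their exon bases with Lat2 and Eif4a2 on the other strand. The remaining loader and single-strand binding genes, Rfc1, Rfc3, Rfc5, Rpa1 and Rpa2, differed by 0.74 to 0.99 on day 2 and by 0.21 to 0.49 on day 4.

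Polymerase genes varied widely on day 2, within enzymes as well as between them. The epsilon genes Pole and Pole2 were at least 2-fold higher in Ly6C low cells (1.95 and 1.73), the delta genes Pold1, Pold2 and Pold3 had differences of 0.49 to 0.94, and the alpha and primase genes spread from 0.54 to 1.69. The small subunits outside the 40 genes, named after their values were seen, had 0.31 for Pole3, -0.18 for Pole4 and -0.45 for Pold4, so neither enzyme's subunits shared 1 difference. Pole (ENSMUSG00000007080, chromosome 5, 110286306 to 110337474), the catalytic subunit of the leading strand polymerase, was at 5.92, then 2.84, 4.68 and 5.27, then 6.64 and 6.50. Pole2, its second subunit, was at 4.91, then 3.40, 4.26 and 4.90, then 5.99 and 4.99. The pair parted on day 4, when Pole was 1.23 higher in Ly6C low cells and Pole2 0.10 higher. Pole2 was under a value of 5 in both of those columns and so was not among the genes compared.

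Pold1, the catalytic subunit of the lagging strand polymerase, was at 7.41, then 6.24, 6.84 and 7.38, then 7.78 and 7.03. On day 4 it was the gene furthest below 0, at a difference of -0.34. Its partner Pold2 had 6.31, then 6.42, 6.72 and 6.50, then 7.21 and 6.38. Pold3 was at 8.79, then 9.03, 8.99 and 8.69, then 9.60 and 9.12. The 2 partners were within 0.24 between neutrophils and Ly6C high cells of day 1, while Pold1 differed by -1.16.

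Lig1, which seals Okazaki fragments, was at 7.76, then 6.47, 7.03 and 7.62, then 8.77 and 8.39. Fen1, which trims them, was at 7.49, then 6.85, 7.16 and 6.78, then 7.53 and 6.94. Lig1 separated the subsets on day 2 by 1.74 and Fen1 by 0.37. The antisense gene Gm10143 covers 78.8% of the Fen1 exon bases, and its values lay within 6.70 to 7.46, close to those of Fen1, so reads of the pair may be shared. Pola2, the accessory subunit of polymerase alpha, had 7.83, then 7.16, 7.27 and 7.30, then 7.81 and 7.33, the smallest range of the 40 genes at 0.67. Pola1, Prim1 and Prim2 differed by 1.69, 1.59 and 0.91 between subsets on day 2.

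Nucleotide supply genes had the highest median of the 5 roles on day 2, 1.63, with 4 of 5 at least 2-fold higher. Rrm2 (ENSMUSG00000020649, chromosome 12, 24708241 to 24714146), the cell-cycle regulated subunit of ribonucleotide reductase, was at 7.74, then 4.26, 5.76 and 6.96, then 7.76 and 8.0. Rrm1, its large subunit, was at 8.87, then 7.43, 7.95 and 8.40, then 9.25 and 9.04. Rrm2 spanned 3.74 over the groups and Rrm1 1.82, both with the lowest value in Ly6C high cells of day 1.

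Tyms, thymidylate synthase, was at 5.94, then 4.90, 4.86 and 6.04, then 6.52 and 6.30. Tk1, the salvage thymidine kinase, had 7.17, then 5.82, 6.45 and 7.15, then 7.28 and 7.69. Dut (ENSMUSG00000027203, chromosome 2, 125247190 to 125258608), which removes dUTP, was at 4.86, then 4.34, 5.32 and 6.69, then 6.96 and 6.64. The subset difference of Dut was 1.63 on day 2 and -0.05 on day 4, while its value in Ly6C high cells was 1.36 higher on day 4 than on day 2 and that in Ly6C low cells differed by -0.32.

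S phase entry genes followed. Ccne1, a cyclin E that drives entry, was at 5.49, then 3.64, 4.36 and 5.10, then 6.35 and 5.83. Ccne2, the other cyclin E, had 6.66, then 5.33, 5.40 and 5.70, then 6.27 and 5.75. The subset difference on day 2 was 1.99 for Ccne1 and 0.87 for Ccne2, of whose exon bases 17.4% overlap Ints8. E2f1, an activator of these genes, was at 8.02, then 7.58, 7.77 and 7.78, then 8.64 and 8.30. Its range of 1.05 was smaller than that of Mcm6, Rrm2, Pole and Mcm10. Uhrf1 differed by 1.66 on day 2 and 0.59 on day 4.

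On day 4 the subsets lay closer. Of the 40 genes 36 were still higher in Ly6C low cells, with a median of 0.42, and 3 were at least 2-fold higher (Mcm10 at 1.22, Pole at 1.23 and Rrm2 at 1.04) and 0 lower. Of 12438 genes compared, 2.44% were at least 2-fold higher and 8.93% lower. The difference was smaller on day 4 than on day 2 for 39 of 40 genes, with a median change of -0.78, and the median change over all 13041 genes was -0.01. Across the 40 genes the differences of the 2 days had a Pearson correlation of 0.68, and across all genes of 0.74. The points share libraries within each day, so this describes the columns. Markers of other cells differed too. In Ly6C low cells 8 of 8 endothelial markers were at least 2-fold lower, with sums of 8.85 against 12.41. So were 8 of 8 fibroblast markers, with 13.85 against 15.84, and 5 of 7 dendritic cell markers, with 8.06 against 10.79. The part of those cells in the result was not tested. The classical monocyte markers, which include Ly6c1 and Ly6c2 of the sort, were lower for 6 of 7, with 11.04 against 13.32. Quantile normalization gave 7 genes at least 2-fold higher in place of 3 and moved the share of higher among all genes called from 21.4 to 38.2%.

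**Figure D4:**
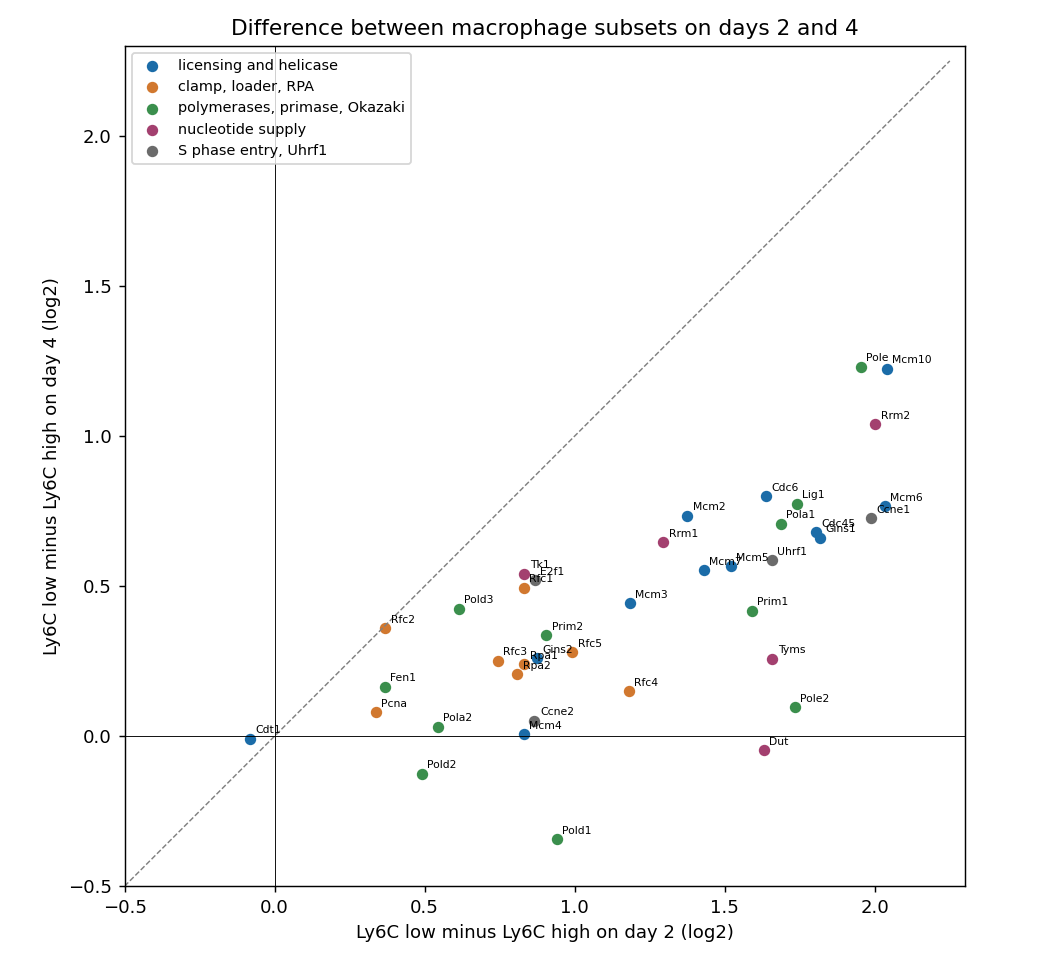
Difference between Ly6C low and Ly6C high cells (log2) on day 2 (horizontal axis) and on day 4 (vertical axis), 1 point per gene, coloured by role, with the line of equal differences dashed. The points lie below the line for 39 of 40 genes; Cdt1 lies just above it near 0.

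The narrower gap on day 4 had a value from each side. In Ly6C low cells, 33 of 40 genes were lower on day 4 than on day 2, with a median of -0.40, and 1 was at least 2-fold lower (Pole2, at -1.0) and 0 higher. Pole2 was under a value of 5 on day 4, and it was no longer past 2-fold with a pseudocount of 1 or 10 or with median-ratio rescaling, nor compared under the filters of 5 in both groups or 7 in 1. Of 11824 genes compared, 9.23% were at least 2-fold higher and 2.16% lower. The genes above 0 were Mcm10, Cdt1, Rfc1, Rfc2, Rfc5, Rrm2 and Tk1, and by role the medians were -0.58 for licensing and helicase genes, -0.52 for S phase entry, -0.48 for polymerases, -0.31 for the clamp and loader and -0.20 for nucleotide supply. Quantile normalization moved the share of higher among genes called from 81.1 to 66.7%.

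In Ly6C high cells, 33 of 40 were higher on day 4 than on day 2, with a median of 0.46 over all 40, and 4 were at least 2-fold higher (Mcm10, Rrm2, Tyms and Dut) and 0 lower. Of 12348 genes, 14.3% were at least 2-fold higher and 2.00% lower, so the share of replication genes past 2-fold was below that of all genes. Nucleotide supply genes had a median of 1.18, with 3 of 5 past 2-fold, and the other roles had 0.23 to 0.54. The direction depended on the scaling: after quantile normalization the median was -0.01 over all 40 genes and 20 lay above 0. That scaling also shifted the median of all genes by -0.14 and moved the share of higher among genes called from 87.7 to 62.0%. Under it the median of the nucleotide supply genes was 0.51 in place of 1.18, and 0 of 5 were past 2-fold in place of 3. Fibroblast markers were at least 2-fold higher on day 4 for 8 of 8 and endothelial markers for 8 of 8, with sums of 15.84 against 10.36 and of 12.41 against 9.71. The part of those cells in the result was not tested.

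Between days 1 and 2 the Ly6C high cells differed little over all genes: 1.41% of 11232 were at least 2-fold higher on day 2 and 1.10% lower. Among replication genes 38 of 40 were higher on day 2, with a median of 0.49 over all 40. Without a filter 6 of 40 were at least 2-fold higher and 0 lower, and of the 31 compared 3 were (Mcm5 at 1.03, Mcm6 at 1.49 and Rrm2 at 1.50). The 3 others, Mcm10, Cdc45 and Pole, were under a value of 5 on both days. The 6 helicase subunits were all higher on day 2, by 0.51 to 1.49. Pold3 and Tyms were the 2 below 0, both at -0.04. Of 8 neutrophil markers compared 5 were at least 2-fold lower on day 2, with sums over the list of 11.29 against 12.22, and of 6 fibroblast markers compared 4 were higher, with 10.36 against 8.66. Their part in the result was not tested.

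From day 1 to day 4, 37 of 40 genes were higher in Ly6C high cells, with a median of 0.91 over all 40, and 19 were at least 2-fold higher and 0 lower (18 of the 38 compared). Of 12391 genes, 17.6% were at least 2-fold higher and 3.97% lower. Among the 28 genes at 5 or more on both days 9 were at least 2-fold higher. The largest differences were 2.70 for Rrm2, 2.66 for Mcm10 and 2.43 for Pole, while Pcna, Pold3 and Fen1 lay below 0, at -0.08, -0.34 and -0.07. The order day 1 below day 2 below day 4 held for 32 of 40 genes and for 30.3% of all genes. Quantile normalization reduced the count over all 40 genes from 19 to 6 and the median to 0.44, shifted the median of all genes by -0.15, and moved the share of higher among genes called from 81.6 to 56.9%. Fibroblast and endothelial markers were at least 2-fold higher on day 4 for 8 of 8 each, with fibroblast sums of 15.84 against 8.66 and an endothelial median difference of 2.67, and of 8 neutrophil markers compared 6 were lower, with 11.08 against 12.22. Whether those cells had a part in the result was not tested.

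The last comparison set Ly6C high macrophages of day 1 beside neutrophils of the same day. Replication genes were lower in the macrophages: 37 of 40 lay below 0, with a median of -1.26, and 25 were at least 2-fold lower and 0 higher (24 of the 38 compared). Of 11890 genes, 16.6% were at least 2-fold higher and 16.1% lower, with a median of 0.08. Of the 28 genes at 5 or more in both groups, 15 were at least 2-fold lower. Mcm10 (-5.60), Rrm2 (-3.48), Pole (-3.08), Cdc45 (-2.56) and Mcm6 (-2.35) were furthest below 0, and Cdt1 (0.48), Pold3 (0.24) and Pold2 (0.10) lay above it.

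In the neutrophil column 36 of 40 genes were above both Ly6C high columns of days 1 and 2. The same share over all genes was not counted, and this count overlaps that of the day 1 comparison above. The 8 markers of neutrophil precursors, such as Mpo and Elane, summed to 6.34 there with 4 of 8 listed at 0, and to 7.99 in Ly6C high cells of day 1. The macrophage markers in the neutrophil column are given above, and their part in its replication gene values was not tested. Rescaling shifted the median of all genes in this comparison by -0.11 to -0.15, and 0 of the 40 genes were at least 2-fold higher under any scaling.

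Genes next to the 40 in the pathway, from written lists, had smaller median differences. On day 2, 11 of 37 other fork and origin genes were at least 2-fold higher in Ly6C low cells and 0 lower, with a median of 0.46. They were led by Clspn (2.20), a checkpoint mediator, Chtf18 (2.02), of an alternative clamp loader, Chaf1a (1.90), a histone chaperone, and Mcm8 (1.83), an MCM relative. Other nucleotide synthesis genes had a median of 0.22 over 30 compared, with 0 at least 2-fold lower, and Prps2, which makes the ribose phosphate precursor of nucleotides, was higher by 1.11. Nucleotide breakdown genes had 0 of 7 higher and 2 lower, Upp1 (-1.76) and Nt5e (-1.10). Against the member median of 1.18, the purine and pyrimidine enzymes outside the set differed little.

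G1/S regulators had 3 of 22 at least 2-fold higher and 0 lower, Ccna2 (2.17), Ccnd1 (1.42) and Rbl1 (1.34). Checkpoint genes had 7 of 14 higher and 0 lower, led by Fancd2 (2.84) and Brca1 (2.04), which act in DNA repair. Genes induced by p53 had 0 of 10 higher and 0 lower. Of the CDK inhibitors, Cdkn1b (p27) was at least 2-fold lower in Ly6C low cells (-1.01), and Cdkn1a (p21), Cdkn2c (p18) and Cdkn2d (p19) had differences of -0.79, 0.90 and 0.17. Cdkn1a had 11.65, then 12.76, 12.62 and 12.19, then 11.83 and 11.90 in the order used above, so all its Ly6C high columns lay above its Ly6C low columns. Cdkn1c (p57) reached 5 on day 4 alone, at 6.25 in Ly6C high and 5.79 in Ly6C low cells.

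The mitosis and G2/M genes peaked at another time than the replication genes. Of 20, 19 were highest in Ly6C low cells of day 4, where 4 of 40 replication genes were, and 18 or 19 were so under each rescaling. The share of all genes over the 6 groups was not counted. Among the 5 macrophage columns alone, 25.8% of 13041 expressed genes and 6 of 40 replication genes were highest there. From day 2 to day 4 in Ly6C low cells all 20 were higher, with a median of 0.81, against 33 of 40 replication genes lower. At least 2-fold higher were 6 of the 20, against 9.23% of 11824 genes compared. Cenpf, a kinetochore protein, was higher by 1.46 and Ccnb2, a mitotic cyclin, by 1.28. As deposited, the 2 lists had the same direction in the other 6 comparisons, in which the medians of the mitosis genes lay further from 0: 1.84 and 1.18 between subsets on days 2 and 4, 3.37 from day 1 to day 4 in Ly6C high cells and -3.11 against neutrophils. These medians were taken over all 20 genes with no filter. With the filter, 10 of 20 were compared between days 1 and 2 in Ly6C high cells, with a median of 1.38. In the other comparisons 18 to 20 were compared. Fibroblast markers were at least 2-fold higher on day 4 in Ly6C low cells for 8 of 8, with sums of 13.85 against 7.85. Of 6 myogenic progenitor markers, 3 were compared and all 3 were higher, with sums of 8.47 against 3.27. The part of those cells in either list was not tested.

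**Figure D5:**
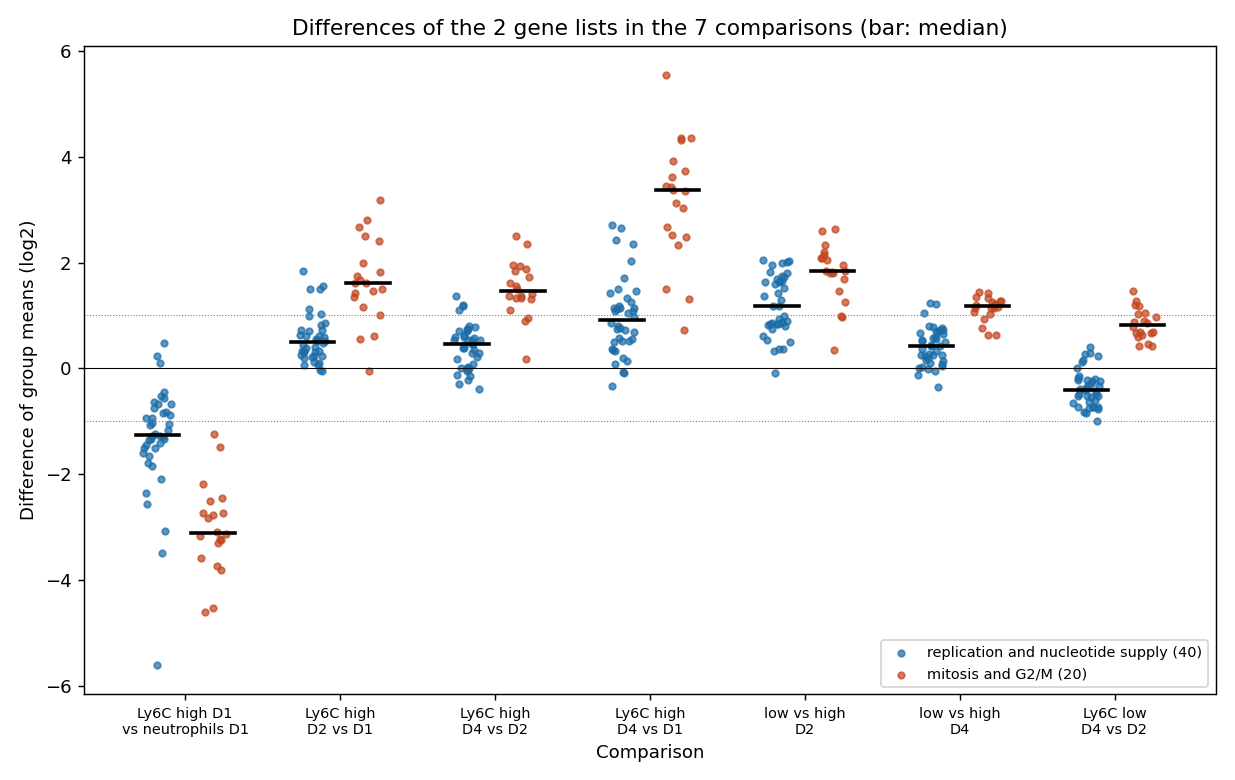
Differences of the authors' group means (vertical axis, log2) in the 7 comparisons (horizontal axis) for the 40 replication and nucleotide supply genes and the 20 mitosis and G2/M genes, 1 point per gene, with the median as a bar and dotted lines at a 2-fold difference. The lists lie on the same side of 0 in 6 comparisons and on opposite sides in that of Ly6C low cells of day 4 with day 2, at medians of -0.40 and 0.81.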

How the data were processed

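Gene expression was measured in 17 samples of sorted muscle cells in 6 groups. The authors deposited log2 normalised reads, 1 column per group, which were used as the authors' group means. The submitters' processing notes name TopHat2 2.0.7, Cufflinks 2.0.2 and the mm10 build. The sources used here do not name the annotation, the strand used in counting or the normalization method. With no sample values, neither the total depth per sample nor any spread is known, and no test was run. The worth of 1 read was read from the steps between low values, within a relative tolerance of 1e-05, after a check on simulated data.

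Differences were subtracted on the deposited log2 scale with no pseudocount. Genes at a log2 value of 5 in at least 1 of the 2 groups were compared, and differences of at least 1 were counted. Of several rows with 1 symbol the one with the highest mean was used. Gene positions and exon overlaps came from GENCODE M21 (GRCm38, the assembly of mm10), where all 40 identifiers were found, and promoters from RefSeq (GRCm38.p6). Values in all groups are given for members among the 5 largest differences in either direction in a comparison, and for Mcm2 to Mcm7, Pcna, Rrm1 and Rrm2. Of other lists up to 4 genes with the largest differences are named, and every CDK inhibitor that reached 5. Some genes that this rule takes are left out of the text. Members and lists were chosen with earlier results of these data known. Alternatives were pseudocounts of 1 and 10, 3 other filters, summed rows and 3 rescalings. Work was done in Python 3.11.15 with numpy 2.4.6, pandas 2.3.3 and matplotlib 3.10.9.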

Additional observations from a re-analysis of the deposited data

How the results depend on the processing

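No paired analysis was possible because the table holds 1 value per group and no single samples. For the same reason no replicate could be left out. Of 189 values of the 21 counts and medians under 9 alternatives, 168 stayed within 1.5 times of the value given. A count of 0 that stayed 0 was taken as the same, and summed rows could change no value. A count could not reverse, and of the medians 0 reversed over the genes compared. Over all 40 genes the median for Ly6C high day 4 against day 2 did, from 0.46 to -0.01 after quantile normalization. Requiring a log2 value of 5 in both groups gave 15 genes lower in Ly6C high cells than in neutrophils on day 1, 2 higher in Ly6C high cells on day 4 than on day 2, 9 higher on day 4 than on day 1, 12 higher in Ly6C low than in Ly6C high cells on day 2, and 0 lower for Ly6C low day 4 against day 2. With no filter 6 were higher in Ly6C high cells on day 2 than on day 1. A minimum of 7 in 1 group gave 0 higher, with a median of 0.0856, for Ly6C high day 4 against day 2, 5 for day 4 against day 1, 10 and 1 for the subsets on days 2 and 4, and 0 lower for Ly6C low day 4 against day 2. A pseudocount of 10 gave 2 higher for Ly6C high day 4 against day 2. The 1 gene lower in Ly6C low cells on day 4 became 0 with a pseudocount of 1 or 10 and with median-ratio rescaling. Quantile normalization gave 0 higher and a median of 0.0336 for Ly6C high day 4 against day 2, 4 and 0.436 for day 4 against day 1, and 7 for the subsets on day 4. Fewer genes are tested under the stricter filters. For the rest the cause was not tested. Of 474 values of single genes, 23 fell under 2-fold and 0 reversed. Changing the filter or summing rows could not alter the difference of a single gene, so those of the 474 stayed the same by construction. Only the pseudocounts and the rescalings could move a single gene, so the 474 overstate how many values were put to a check. A gene that failed the filter of an alternative gave no value there and is not among the 474. A gene near a value of 5 has few reads, and differences under its counting error are not resolved.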
